A study of Mus musculus with 6 samples.

Results

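YAP (Yap1) and TAZ (Wwtr1) are transcriptional coactivators at the end of the Hippo pathway. The kinases LATS1 and LATS2 phosphorylate them and keep them out of the nucleus. When they are not phosphorylated they enter the nucleus, bind TEAD transcription factors and turn on genes such as Ctgf and Cyr61. In the developing heart this pathway is known for setting how much cardiomyocytes divide. Much of this control acts on the proteins, which RNA levels do not report.

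The 10 genes described here were chosen by name: the coactivators Yap1 and Wwtr1, the angiomotin family genes Amotl1 and Amotl2, the LIM-domain gene Ajuba, the kinases Lats1 and Lats2, the TEAD cofactor Vgll4, and the secreted targets Ctgf and Cyr61 (now also called Ccn2 and Ccn1). Each matched 1 of 45706 gene rows, and all 10 were among the 15556 genes tested. Poly(A) RNA was sequenced from whole embryonic hearts of C57BL6/J mice, with 3 hearts in each group. Knockout hearts were flox/flox at both RBPMS and RBPMS2, which encode RNA-binding proteins, and were positive for aMyHC Cre, a recombinase under the alpha-myosin heavy chain promoter that is active in cardiomyocytes. Control hearts came from littermates with the same floxed alleles and no Cre in their label, so the deletion and the transgene cannot be told apart. The labels give no embryonic day. By its promoter the Cre should leave both genes in cells other than cardiomyocytes, but where it acted was not measured.

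The values are read numbers per gene that the authors had scaled per sample and rounded, and the depth before scaling was estimated at 12959434 to 25838007 reads per heart. Rbpms fell by 2.53 and Rbpms2 fell by 0.84 on the log2 scale (limma adjusted p = 0.000325 and 0.00207), in the direction of their labels. Of all genes tested, 17.2% passed an adjusted p of 0.05, 8.61% higher and 8.56% lower in knockout hearts. For each gene the difference is given as log2(value + 1), knockout minus control, with its standard error (SE), its 95% interval and the adjusted p of limma's moderated test over all genes tested.

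Of the 10 genes, only Yap1 passed the threshold. It was higher in knockout hearts, by a fold of 1.2. None was called lower by limma or by limma-voom. Nor was any of the 10 lower at an unadjusted p under 0.05, for which no share of all genes is given here. The share called higher, 1 of 10 (10%), lies near the 8.61% of all genes tested. The median difference was 0.14 for the 10 genes and 0.00 for all genes tested. The other 9 differences lay between -0.07 and 0.24. Over all 10 genes the 95% intervals ran from -0.22 to 0.51, so that each stayed inside a change of 1.5-fold (0.58 on the log2 scale). For these genes the hearts had 526 to 5491 estimated reads, which gives a counting error of at most 4.36% for 1 heart.

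**Figure D1:**
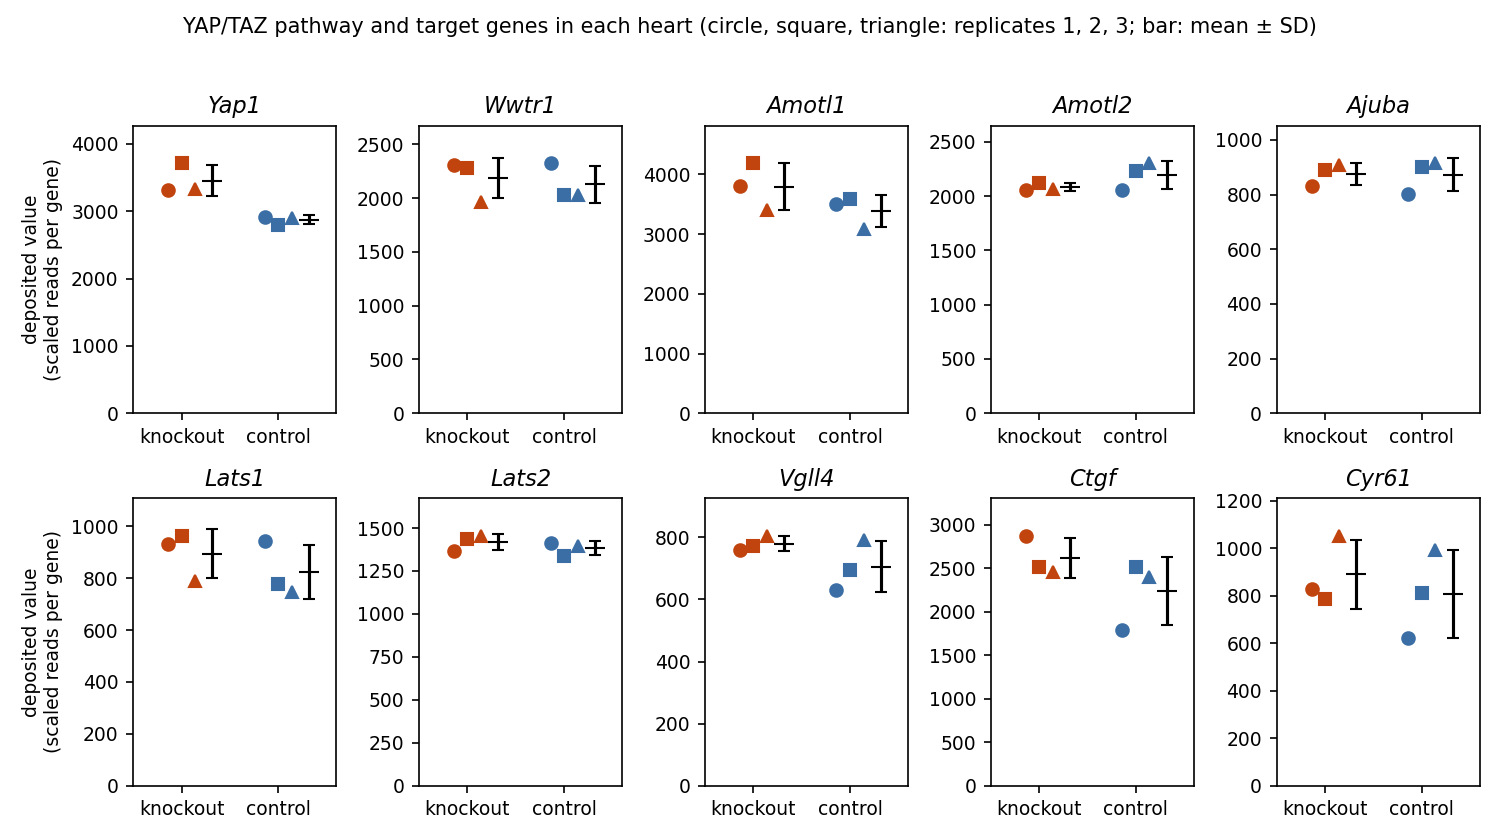
Deposited value (y axis, scaled reads per gene, from 0) of each of the 10 genes in 3 knockout and 3 control hearts, with the mean ± SD beside each group. The groups separate for Yap1, where knockout hearts lie at 3314 to 3713 and control hearts at 2799 to 2919, and overlap for the other 9 genes.

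The TEAD factors bind DNA at the sequence GGAATG, which reads CATTCC on the other strand. This motif was looked for on both strands in the 250 bases before the RefSeq transcription start sites (build GRCm38.p6), where 9 of the 10 genes had a window; Ctgf had none in the table used. It was present in 6 of the 9, which were Yap1, Wwtr1, Cyr61, Ajuba, Vgll4 and Amotl2, against 14.4% of all genes with a window. Amotl1, Lats1 and Lats2 had no match in these bases. A match is a run of letters and no evidence of binding. Stretches of 66 bases around the motif are shown for the gene that was called (Yap1), its paralog (Wwtr1), a target gene (Cyr61) and 2 regulators, 5′ to 3′ on the gene's strand, with the motif in capitals.

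Yap1, minus strand, chr9:8004702-8004767: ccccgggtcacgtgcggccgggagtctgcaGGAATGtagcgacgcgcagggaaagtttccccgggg

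Wwtr1, minus strand, chr3:57576011-57576076: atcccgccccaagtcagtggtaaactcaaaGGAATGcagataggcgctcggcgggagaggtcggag

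Cyr61, minus strand, chr3:145650053-145650118: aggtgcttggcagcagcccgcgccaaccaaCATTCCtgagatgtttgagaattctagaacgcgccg

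Ajuba, minus strand, chr14:54577812-54577877: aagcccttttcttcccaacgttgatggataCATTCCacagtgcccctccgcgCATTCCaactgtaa

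Vgll4, minus strand, chr6:114969250-114969315: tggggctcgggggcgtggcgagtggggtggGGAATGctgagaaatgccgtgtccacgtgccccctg

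In the GENCODE M21 annotation the stretches of Yap1, Wwtr1, Cyr61 and Ajuba lie outside their genes, and that of Vgll4 lies in an intron of a longer transcript. The stretch around the Amotl2 match, which is not shown, overlaps an annotated exon of Amotl2. The first base of the motif stands at -141 from the start site for Yap1, at -103 for Cyr61 and at -82 for Vgll4. For Wwtr1 it stands at -136 or -170, depending on which of its 2 annotated starts is used. Ajuba has 2 matches, at -186 and -164.

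Yap1 (ENSMUSG00000053110; minus strand of mm10 chromosome 9, 7931999 to 8004596) was at 3314, 3713 and 3326 in knockout replicates 1 to 3, and at 2919, 2799 and 2897 in control replicates 1 to 3. Every knockout heart lay above every control heart, and knockout replicate 2 stood highest. Such a separation of the groups was seen in 35.4% of all genes tested. The mean was 3451 ± 227 in knockout hearts and 2872 ± 63.9 in control hearts (SD, n = 3 each). The log2 difference was 0.26 (SE 0.07, 95% interval 0.12 to 0.41, limma adjusted p = 0.0232), a fold of 1.2. A two-sided exact permutation test on Yap1 alone gave p = 0.10, the smallest that 3 against 3 hearts allow. The call did not hold without every heart. The limma adjusted p was 0.123 without knockout replicate 2, 0.082 without control replicate 2 and 0.0576 without control replicate 3, with differences of 0.21, 0.24 and 0.27. It was 0.03 to 0.039 without control replicate 1, knockout replicate 1 or knockout replicate 3. The difference stayed at 0.21 to 0.29 throughout. Leaving out a heart also lowered the genes called higher over all genes, from 1339 to between 619 and 1237.

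Wwtr1 encodes TAZ, the paralog of YAP (ENSMUSG00000027803; minus strand of chromosome 3, 57455649 to 57575910). It was at 2303, 2276 and 1968 in knockout hearts and at 2325, 2025 and 2032 in control hearts. The groups overlapped, with control replicate 1 the highest of all 6 hearts. The difference was 0.04 (SE 0.08, interval -0.15 to 0.22, limma adjusted p = 0.812). Per kilobase of annotated exon, Yap1 was lower than Wwtr1 in every heart. The ratio of Yap1 to Wwtr1 was 0.74, 0.84 and 0.87 in knockout hearts and 0.65, 0.71 and 0.74 in control hearts, a mean of 0.82 ± 0.07 and 0.70 ± 0.05 (SD, n = 3 each). Whether Yap1 and Wwtr1 differ in their response was not tested.

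**Figure D2:**
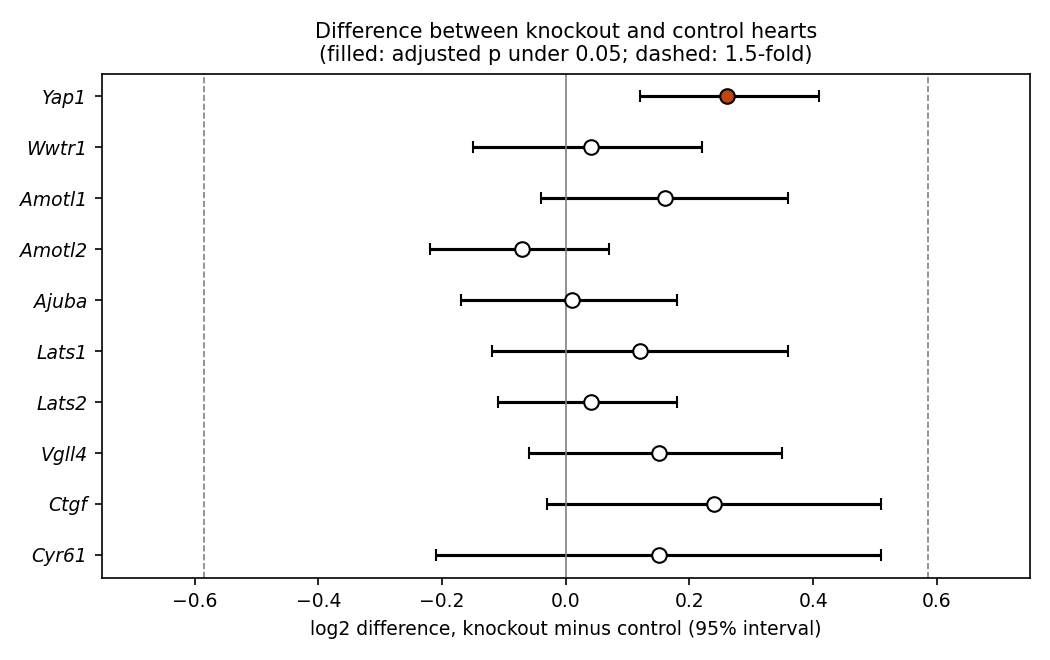
Log2 difference, knockout minus control (x axis), with its 95% interval for each of the 10 genes; a filled point passed an adjusted p of 0.05 and dashed lines mark a change of 1.5-fold. Only the Yap1 interval, 0.12 to 0.41, lies wholly above 0.

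The angiomotin family and AJUBA are scaffold proteins: angiomotins hold YAP and TAZ at cell junctions and in the cytoplasm, and AJUBA family proteins restrain the LATS kinases. Amotl1 (ENSMUSG00000013076; minus strand of chromosome 9, 14541966 to 14645056) was at 3800, 4190 and 3399 in knockout hearts and at 3509, 3582 and 3086 in control hearts. The groups overlapped, since knockout replicate 3 lay below control replicates 1 and 2, and the difference was 0.16 (SE 0.09, interval -0.04 to 0.36, limma adjusted p = 0.25). Amotl2, itself a target of YAP and TAZ (ENSMUSG00000032531; plus strand of chromosome 9, 102716672 to 102733418), was the only gene of the 10 with a negative difference. It was at 2055, 2125 and 2068 in knockout hearts and at 2056, 2228 and 2304 in control hearts, a difference of -0.07 (SE 0.07, interval -0.22 to 0.07, limma adjusted p = 0.476). Control replicate 1 lay within the knockout range, and the other controls lay above it.

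The ratio of Amotl1 to Amotl2 per kilobase was 1.16, 1.23 and 1.03 in knockout hearts and 1.07, 1.0 and 0.84 in control hearts, so that the ranges overlapped. Ajuba (ENSMUSG00000022178; minus strand of chromosome 14, 54567472 to 54577558) was at 831, 891 and 907 in knockout hearts and at 803, 902 and 915 in control hearts. The means were 876 ± 40.1 and 873 ± 61.3 (SD, n = 3 each), closer than for any other of the 10 genes on the log2 scale, with a difference of 0.01 (SE 0.08, interval -0.17 to 0.18, limma adjusted p = 0.968).

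LATS1 and LATS2 are the kinases that phosphorylate YAP and TAZ, and Lats2 is itself turned on by YAP and TAZ. Lats1 (ENSMUSG00000040021; plus strand of chromosome 10, 7681214 to 7716460) was at 932, 965 and 788 in knockout hearts and at 945, 780 and 748 in control hearts. Control replicate 1 lay between knockout replicates 1 and 2, and the difference was 0.12 (SE 0.11, interval -0.12 to 0.36, limma adjusted p = 0.489). Lats2 (ENSMUSG00000021959; minus strand of chromosome 14, 57689662 to 57758388) was at 1365, 1435 and 1456 in knockout hearts and at 1413, 1335 and 1396 in control hearts. These hearts lay close together, with a difference of 0.04 (SE 0.06, interval -0.11 to 0.18, limma adjusted p = 0.733). Per kilobase, Lats1 was lower than Lats2 in every heart, with a ratio of 0.52 to 0.65 in knockout hearts and 0.51 to 0.64 in control hearts.

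VGLL4 competes with YAP and TAZ for TEAD factors. Vgll4 (ENSMUSG00000030315; minus strand of chromosome 6, 114860628 to 114969994) was at 761, 772 and 806 in knockout hearts and at 631, 694 and 793 in control hearts. Control replicate 3 fell within the knockout range and the other controls lay below it. The difference was 0.15 (SE 0.09, interval -0.06 to 0.35, limma adjusted p = 0.30).

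Ctgf and Cyr61 encode secreted matrix-associated proteins of the CCN family and are the most used readouts of YAP and TAZ activity. Ctgf (ENSMUSG00000019997; plus strand of chromosome 10, 24595442 to 24598683) was at 2877, 2515 and 2458 in knockout hearts and at 1792, 2519 and 2396 in control hearts. Control replicate 1 stood below all other hearts, while the other controls lay next to knockout replicates 2 and 3. The difference was 0.24 (SE 0.12, interval -0.03 to 0.51, limma adjusted p = 0.206), and it was 0.09 without control replicate 1. Cyr61 (ENSMUSG00000028195; minus strand of chromosome 3, 145646976 to 145649981) was at 829, 787 and 1054 in knockout hearts and at 623, 811 and 993 in control hearts. It had the widest standard error of the 10 genes, with a difference of 0.15 (SE 0.16, interval -0.21 to 0.51, limma adjusted p = 0.566). Without control replicate 1, again the lowest heart, the difference was -0.02.

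Ctgf was highest in knockout replicate 1 and Cyr61 in knockout replicate 3, and their ratio per kilobase ran from 1.65 to 2.45 in knockout hearts and from 1.70 to 2.19 in control hearts. Likeness to Ctgf and Cyr61 was measured over 10605 protein-coding genes whose values averaged 100 or more. The 3 genes whose gene-centred log2 values lay nearest to those of Ctgf over the 6 hearts were Map9, Krt19 and Rasl11b, with root mean square differences of 0.056, 0.059 and 0.068. Krt19 is a keratin gene that also stands in the epicardial marker list used here. The nearest to Cyr61 were Nagpa, Ndn and Rita1, with root mean square differences of 0.048, 0.048 and 0.051. With 6 hearts, this likeness is a description only.

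Levels can be compared between genes only per length. Per kilobase of annotated exon, Ctgf had the highest level of the 10 genes, at 915 ± 79.4 in knockout hearts and 781 ± 136 in control hearts (SD, n = 3 each). Lats1 had the lowest, at 123 ± 12.9 in knockout hearts and 113 ± 14.5 in control hearts. In control hearts the order from high to low was Ctgf, Wwtr1, Cyr61, Amotl2, Amotl1, Yap1, Ajuba, Lats2, Vgll4 and Lats1. Neighbours overlapped over the 3 control hearts from Wwtr1 down to Yap1, and again between Vgll4 and Lats1. Ctgf from Wwtr1, Yap1 from Ajuba, Ajuba from Lats2 and Lats2 from Vgll4 did not overlap. In knockout hearts the order was the same except that Amotl1 (377 ± 39.3 per kilobase) and Yap1 (373 ± 24.5) stood above Amotl2 (331 ± 5.92). Exon lengths are those of all annotated transcripts joined, so a gene with long rare exons is set too low.

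**Figure D3:**
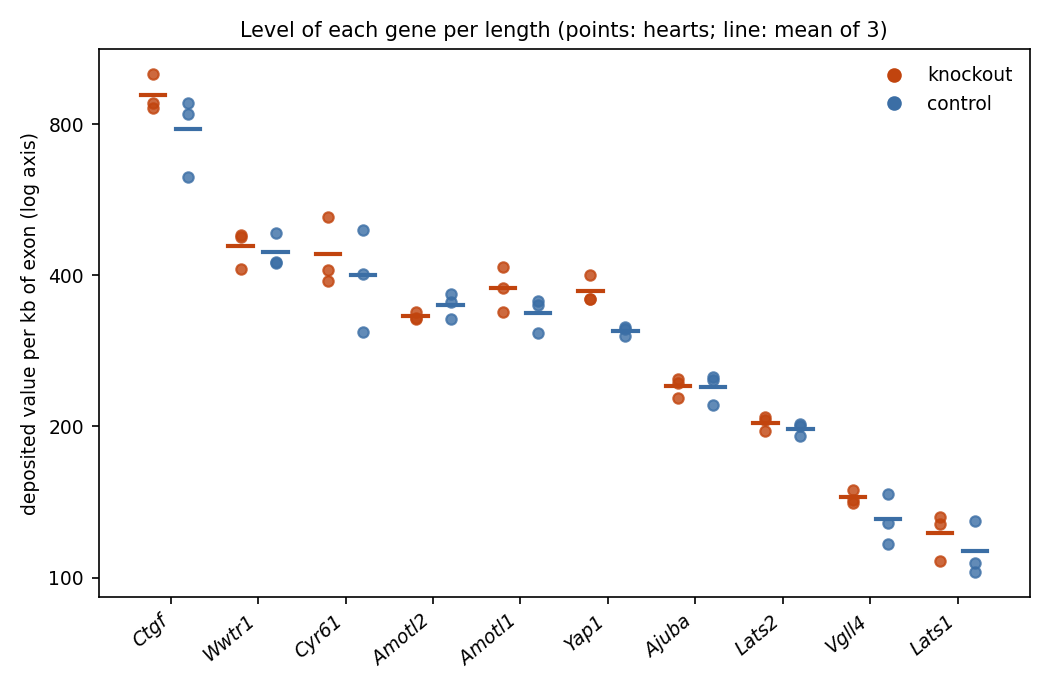
Deposited value per kilobase of annotated exon (y axis, log scale) of the 10 genes in 3 knockout and 3 control hearts, ordered by the control mean, with a line at each group's mean. Ctgf stands highest and Lats1 lowest, and the groups are apart for Yap1.

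The other regulators of the pathway were taken as a list of 21 genes, from the cadherins Fat4 and Dchs1 through the MST, MOB and TAO kinase modules to junction scaffolds. All 21 were tested, 2 rose and 0 fell in knockout hearts, or 9.52% against 8.61% of all genes called higher. At an unadjusted p under 0.05 there were 10, of which 3 were lower. The share of all genes at that p is not given here, and 8.61% does not stand for it. The median difference was 0.09, against 0.00 for all genes. Limd1, of the AJUBA family of LIM proteins, was at 3914, 3807 and 3683 in knockout hearts and at 3054, 3291 and 3089 in control hearts, and rose by 0.27 (SE 0.06, limma adjusted p = 0.014). Amot, the X-linked founder of the angiomotin family, was at 345, 315 and 376 in knockout hearts and at 273, 286 and 223 in control hearts, and rose by 0.41 (SE 0.12, limma adjusted p = 0.0427). For both genes every knockout heart lay above every control heart. The groups did not overlap for 8 of the 21 genes, against 35.4% of all genes tested. The call on Amot was lost without each heart in turn (limma adjusted p = 0.0504 to 0.13), and that on Limd1 without knockout replicate 2 (limma adjusted p = 0.067). That on Amot was also lost with no filter on low values and with embryo sex as a term (limma adjusted p = 0.0829 and 0.0861). With values scaled to equal totals, 5 of the 21 rose.

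At the DNA-binding end of the pathway, 6 genes of the TEAD and vestigial-like (VGLL) families were examined and 5 tested; Vgll2 was at 0 in all 6 hearts. Vgll3, a TEAD cofactor gene with low values, was at 82, 108 and 126 in knockout hearts and at 41, 40 and 41 in control hearts. It rose by 1.33 (SE 0.19, limma adjusted p = 0.00176), a fold of 2.51, and passed under each alternative tried. Tead4 was at 120, 128 and 117 in knockout hearts and at 154, 170 and 164 in control hearts, and fell by 0.42 (SE 0.12, limma adjusted p = 0.0375). Its call was lost without each heart in turn, with limma adjusted p = 0.0511 to 0.116. It was also lost with no filter on low values and with embryo sex as a term (limma adjusted p = 0.0581 and 0.0685). Tead1 did not pass, with a mean of 5679 ± 195 in knockout hearts and 5394 ± 372 in control hearts (SD, n = 3 each). Tead2 and Tead3 did not pass either, with differences of -0.07 and -0.06.

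A published set of 22 human genes that follow YAP and TAZ activity across cancers was also examined, of which 4 are among the 10 genes above. Those 4, Ctgf, Cyr61, Amotl2 and Lats2, did not pass and are not in the counts that follow. Of the other 18 genes, 17 were tested, 6 rose and 0 fell, or 35.3% against the 8.61% of all genes called higher. At an unadjusted p under 0.05 there were 8, of which 0 were lower, with no share of all genes at that p beside them. The median difference was 0.15. Nt5e, the ecto-enzyme CD73, was at 484, 616 and 543 in knockout hearts and at 234, 294 and 270 in control hearts, and rose by 1.04 (SE 0.12, limma adjusted p = 0.000776). Igfbp3, a secreted binder of insulin-like growth factors, was at 3036, 2412 and 4138 in knockout hearts and at 1419, 1936 and 1567 in control hearts, and rose by 0.94 (SE 0.17, limma adjusted p = 0.00606). Ccdc80, a secreted matrix protein gene, rose by 0.55 (SE 0.08) and Tgfb2, a ligand of the TGF-beta family, by 0.32 (SE 0.07), with limma adjusted p = 0.00166 and 0.016. The call on Tgfb2 was lost without control replicate 2 and without knockout replicate 2 (limma adjusted p = 0.0646 and 0.0903). The other 2 that rose were Myof and Crim1, by 0.5 (SE 0.15) and 0.3 (SE 0.08), with limma adjusted p = 0.04 and 0.0368.

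Ankrd1, a cardiac ankyrin repeat gene much used as a YAP target in heart, did not pass. It was at 23572, 18088 and 14142 in knockout hearts and at 16463, 17769 and 17364 in control hearts, so that the controls lay inside the knockout range. Axl, F3, Fjx1 and Gadd45a did not pass either, nor did Arhgef17 (-0.24) and Nuak2 (-0.45), which had the lowest differences. Without control replicate 2, and likewise without knockout replicate 2, 3 of the set rose in place of 6. These were Nt5e, Igfbp3 and Ccdc80, so the calls on Tgfb2, Myof and Crim1 were lost both times.

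Whole hearts were measured, so fewer cells of a type and less RNA per cell cannot be told apart. Markers of several other cell types were higher in the same hearts. Their counts of called genes stand against 8.61% of all genes called higher and 8.56% called lower. The counts at an unadjusted p under 0.05 have no share of all genes beside them. Among fibroblast markers 4 of 8 rose, with 5 higher at an unadjusted p under 0.05. The summed value of all 8 was 118866 to 148923 in knockout hearts and 91191 to 106155 in control hearts. Most of that sum came from Col1a1, Col1a2, Col3a1 and Postn. Pdgfra, Dcn, Lum and Col1a1 did not pass (limma adjusted p = 0.117, 0.225, 0.245 and 0.434). Among macrophage markers 6 of 8 rose, with 8 higher at that unadjusted p (1934 to 2818 in knockout and 1321 to 1478 in control hearts). Among endothelial markers 4 of 8 rose, with 6 higher at that p (22504 to 24971 in knockout and 20066 to 20611 in control hearts). For epicardial markers 0 of 7 passed in limma, with 2 higher at that p (4353 to 4841 in knockout and 3868 to 4186 in control hearts). For mural cell markers 0 of 6 rose and 1, Myh11, fell, while 5 lay at an unadjusted p under 0.05, of which only Myh11 was lower (10349 to 11886 in knockout and 8835 to 10146 in control hearts). For cardiomyocyte markers 0 of 10 rose and 1, Actn2, fell, with 3 at an unadjusted p under 0.05, all lower (482766 to 551303 in knockout and 563082 to 583965 in control hearts). No marker of these lists was at 0 in any heart. The part of these shifts in the rises of Yap1, Limd1, Amot, Vgll3 and the target set was not tested.

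**Figure D4:**
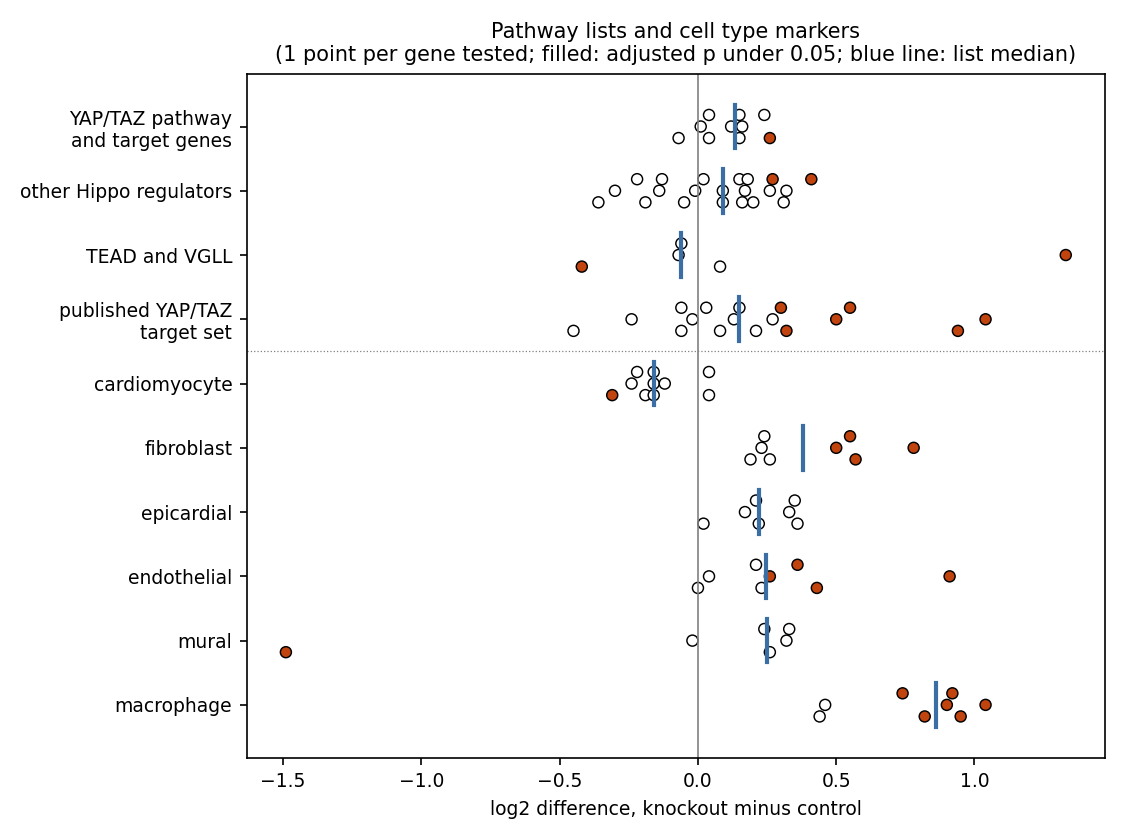
Log2 difference, knockout minus control (x axis), of each gene tested in the 4 pathway lists (above the dotted line) and 6 lists of cell type markers (below it); filled points passed an adjusted p of 0.05 and blue lines mark list medians. The 10 pathway and target genes lie between -0.07 and 0.26, with a median of 0.14. The median is 0.86 for macrophage, 0.38 for fibroblast, 0.25 for mural, 0.24 for endothelial, 0.22 for epicardial and -0.16 for cardiomyocyte markers.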

How the data were processed

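The genes and gene lists were chosen with earlier results of these data known. The submitters' processing notes name Trimmomatic, STAR 2.4.2a, featureCounts 1.5.0, DESeq and DESeq2, with build mm10; their roles, and any use of strand in counting, are not given in the sources used here. The deposited values are treated as a score: reads per gene, scaled by the authors and rounded to whole numbers, as read from the spacing of values up to 150, which also gave the depth. Other annotated genes overlap Ctgf (31 to 43 in every heart), Wwtr1, Lats2, Yap1 and Amotl1 on the opposite strand, and Amotl1 and Lats2 on the same strand; both that overlap Amotl1 and the same-strand gene at Lats2 were not analysed here.

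The test was limma 3.58.1 (R 4.3.3, variance trend, group as the only term) on log2(value + 1), for all genes averaging 10 or more, with Benjamini-Hochberg adjustment over 15556 genes. A fold change on this scale understates that of low genes. On simulated data of 15556 genes the procedure recovered 64% of 1.5-fold and 89% of 2-fold changes, with 7 false calls. The simulation gave every gene the same spread beyond counting error and changed fewer genes than passed in these data. Its rates are over genes of all levels and were not computed for the 10 genes. Smaller changes were not simulated. The labels do not say whether hearts of 1 group came from separate litters, and replicates of 1 group differed by more than counting error in every pair.

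Named are the 10 genes, Rbpms and Rbpms2, up to 4 called genes per direction and pathway list with the smallest p, and the 3 genes nearest to Ctgf and to Cyr61. Other genes of these lists were named after their values were seen. Positions and exon lengths are from GENCODE M21, where 45143 of 45706 identifiers were found, and start sites from RefSeq (GRCm38.p6). Other software was Python 3.11.15, pandas 2.3.3 and matplotlib 3.10.9.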

Additional observations from a re-analysis of the deposited data

How the results depend on the processing

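The alternatives tried were pseudocounts of 0.1 and 10, limma-voom on reads estimated from the spacing, no filter, a filter of at least 50 in 3 hearts, equal totals, quantile normalization, the replicate number as a block, embryo sex (read from Xist and Y-linked genes) as a term, and leaving out each heart. Yap1 passed in every alternative that kept all 6 hearts. Over 20 named genes, settings with all hearts left 176 values on their side of the threshold and in their direction, and 4 lost a call, all of Amot and Tead4, without the filter or with sex as a term; leaving out a heart left 98, lost 18 calls and turned the sign of 4 uncalled values. Those were Cyr61 (-0.02 without control replicate 1; range -0.02 to 0.31) and Ajuba (-0.05, -0.01 and -0.02 without control replicate 1, knockout replicate 2 and knockout replicate 3; range -0.05 to 0.04).

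Leaving out each heart gave 0 to 1 of the 10 genes called higher and 0 to 0 lower, 0 to 1 other Hippo regulators higher and 0 to 1 lower, 1 to 1 TEAD and VGLL genes higher and 0 to 0 lower, and 3 to 5 genes of the target set higher and 0 to 1 lower. Over all genes it gave 619 to 1237 higher and 700 to 1225 lower, against 1339 and 1331 with all hearts. With no filter on low values 846 genes were higher over all genes, 1 other Hippo regulator was higher and 0 TEAD or VGLL genes were lower. With equal totals 5 other Hippo regulators were higher; that scaling moved the median over all genes to 0.032. With sex as a term 0 TEAD or VGLL genes were lower. The number of hearts of each sex per group is not given here. With the replicate block 1 other Hippo regulator and 1 gene of the target set were lower; same-numbered hearts did not deviate together (correlations of -0.041, -0.372 and 0.049 for numbers 1 to 3), so the numbers are not taken as pairs. Counting error was at most 4.36% of a heart's value for these 10 genes.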

Other observations

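The CCN family has other members beside Ctgf and Cyr61, and these were looked at after the values of the 10 genes were seen. Of 4 tested, 3 rose in knockout hearts and 0 fell, against 8.61% of all genes called higher. Nov was at 609, 553 and 446 in knockout hearts and at 442, 182 and 242 in control hearts, and rose by 0.98 (SE 0.26, limma adjusted p = 0.0307). Every knockout heart lay above every control heart, though knockout replicate 3 and control replicate 1 were 446 and 442. Groups that do not overlap were seen in 35.4% of all genes tested. Wisp1 was at 1754, 1522 and 1496 in knockout hearts and at 1309, 1382 and 1043 in control hearts, and rose by 0.36 (SE 0.11, limma adjusted p = 0.0467). Wisp2 was low, at 19, 33 and 26 in knockout hearts and 6, 9 and 14 in control hearts, and rose by 1.38 (SE 0.35, limma adjusted p = 0.0252). Wisp3 lay at 10 to 20 in all 6 hearts and did not pass. Whether the calls on Nov, Wisp1 and Wisp2 hold with a heart left out or under the other alternatives is not given here. Of 8 fibroblast markers 4 rose in these hearts, and their part in the rises of the CCN genes was not tested.

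Stk38 and Stk38l, the NDR kinases most closely related to LATS1 and LATS2, did not pass. Stk38 had a mean of 2088 ± 25.6 in knockout hearts and 2120 ± 50.8 in control hearts (SD, n = 3 each), a difference of -0.02 with a 95% interval of -0.15 to 0.11. Stk38l had a difference of 0.06 with a 95% interval of -0.14 to 0.25.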
